A study of Mus musculus with 24 samples.

Results

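Livers of male C57Bl/6J mice given a Western-style diet together with inhaled vinyl chloride (VC) were compared with livers of mice given the control diet and air, all taken at the later of 2 times. These libraries were chosen by their labels alone, m12_WD+VC against m12_CD, and number 6 of the 24 in the series, 3 in each group. The Western diet (WD) held 42% fat and the control diet (CD) 13%. VC was inhaled at about 0.85 ± 0.1 ppm during 12 weeks, on 5 days of each week and for 6 hours each time, and mice that did not receive it were given air. The m12 groups were then housed for 9 more months, with or without Western diet, so the exposure had ended 9 months before the liver was taken. Their label gives 12 months as the feeding time, the protocol gives 12 weeks of diet before that housing, and the age of the mice is not stated. All mice were fasted for 4 hours beforehand. The other groups used here are m12_WD (Western diet and air), m12_CD+VC (control diet and VC), and w12_CD and w12_WD+VC, taken right after the 12 weeks. The labels do not say whether each library came from its own mouse, so the p-values speak for the spread among these libraries, which may be partly technical.

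VC is the gas from which PVC plastic is made. The liver oxidises it, mainly through the cytochrome P450 enzyme Cyp2e1, to a reactive epoxide and aldehyde that are cleared by epoxide hydrolase, aldehyde dehydrogenases and conjugation to glutathione. A fat-rich diet loads the same hepatocytes with lipid and cholesterol. Sterol then holds back the factors that switch on cholesterol synthesis, and injured or lipid-laden liver recruits macrophages and secretes acute-phase proteins into the blood.

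The libraries were shallow, with 332126 to 470374 counts in the control group and 141457 to 640952 in the combined group. All levels below are CPM scaled with edgeR's TMM factors (scaled CPM), and a gene with 0 counts in the control group could have held up to 3.07 scaled CPM there. All 22 hepatocyte markers were tested, and their summed level was 6248 to 15752 scaled CPM in control and 11196 to 16394 in combined libraries. The first control library stood apart. It had the lowest TMM factor of the group (0.701), and 11.6% of its counts fell on entries that do not overlap a gene on the other strand, where the other controls had 17.0% and 18.3% and the combined libraries 18.2% to 23%. The part of this share in the results was not tested directly, and values under a scaling that treats both kinds of entry separately are given below. In whole tissue, more cells of a type and more RNA per cell cannot be told apart.

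After the combination, 252 of 4198 tested genes (6.0%) passed an adjusted p of 0.05 in edgeR's quasi-likelihood test, 132 higher (3.14%) and 120 lower (2.86%). The genes that rose included macrophage and antigen presentation genes (Ctss, Cd74, H2-Aa, C1qc), osteopontin (Spp1) and acute-phase genes (Saa1, Lcn2, Hp). Those that fell included fatty acid desaturases (Fads1, Fads2, Fads3), sterol genes (Insig1, Cyp51) and the glutathione synthetase Gss. On the opposite strand, Fads3 ends towards Fads2, Gss overlaps Acss2 and Cyp51 overlaps Akap9. The strand setting is not stated, so the origin of their reads is uncertain. The median log2 fold change over all tested genes was 0.08, with 0.30 for the 2028 entries without an overlap on the other strand and -0.07 for the 2123 with one. Of the higher genes 81 had no such overlap and 50 had one, and of the lower genes 37 and 79. The balance of directions depended on the scaling: RLE factors moved the median of all genes to 0.37 and gave 249 higher and 60 lower, DESeq2 gave 90 and 36, and scaling both kinds of entry separately gave 106 and 137. The count also depended on single libraries: it was 49 without m12_WD+VC 2, the deepest of the 6, 121 without m12_CD 3, 126 without m12_CD 1, 139 without m12_WD+VC 1 and 154 without m12_WD+VC 3.

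Kupffer cells are the resident macrophages of the liver, and genes they share with incoming monocytes moved in 1 direction. Of 18 macrophage markers 10 were tested, 4 rose and none fell, with a median log2 fold change of 1.76 and all 10 above 0. Cathepsin S (Ctss), a lysosomal protease that trims the chain guarding MHC class II, had 0 counts in every control library and 35.5, 31.1 and 39.3 scaled CPM in the combined ones, at least 11.2-fold higher (adjusted p = 0.0044, edgeR). C1qc, a chain of the complement component C1q that macrophages make, was at 38.6, 35.4 and 31.1 in control and 149, 132 and 99.6 in combined libraries (log2 fold change 1.86 ± 0.43 SE, adjusted p = 0.00895). For both genes every combined library lay above every control. Such separation was seen for 27.6% of all tested genes.

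Lysozyme (Lyz2) rose from 3 counts in all 3 controls to 68 in the combined group, a ratio of 18.1 with a 95% counting interval of 5.92 to 89.7 (adjusted p = 0.0137, edgeR). Cd5l, a secreted macrophage protein, rose from 6.54 ± 8.78 to 44.8 ± 33.7 scaled CPM (SD, n = 3; adjusted p = 0.0222), although the groups overlapped: the first combined library held 7.10 and the second control 16.5. The other C1q chains did not pass the test, with C1qa at 17.6 ± 11.5 and 53.9 ± 28.3 and C1qb at 14.8 ± 19.8 and 37.6 ± 12.5. Cd68 was at 12.4 ± 0.541 and 35.8 ± 3.39 (adjusted p = 0.168). The summed level of the 18 markers was 116 to 171 scaled CPM in control and 412 to 597 in combined libraries. Only 1 macrophage marker was called without m12_WD+VC 2 and 2 without m12_CD 3, while 5 were without m12_WD+VC 1.

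MHC class II carries peptides to helper T cells, and 3 of its 4 tested genes rose. The median log2 fold change of the 4 was 2.50, or 2.45 with H2-Aa, which had no control count, at its lower bound. Cd74, the invariant chain that escorts class II through the cell (chromosome 18, 60803848 to 60812652, GRCm38), was at 12.9, 18.9 and 9.32 scaled CPM in control and 135, 163 and 70.8 in combined libraries. This was an 8.73-fold difference (log2 3.13 ± 0.54 SE, adjusted p = 0.000411, edgeR) with no overlap between the groups. H2-Aa, the alpha chain of the I-A molecule, had 0 counts in control and 42.6, 22.7 and 23.6 scaled CPM in combined libraries, at least 8.23-fold higher (adjusted p = 0.00922). Its partner H2-Ab1 was at 34.6 ± 15.4 and 89.9 ± 45.1, and the groups overlapped (adjusted p = 0.0385). H2-Eb1 was at 18.4 ± 11.9 and 60.7 ± 24.1 and did not pass (adjusted p = 0.0631). The number of class II genes called was 2 to 3 whichever library was left out.

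Macrophages that take up lipid in fatty liver carry a marker set of their own, and 3 of its 8 tested genes rose, against a median of 1.17 for all 8. Lipoprotein lipase (Lpl), which frees fatty acids from blood triglyceride and is nearly silent in adult hepatocytes, had 0 control counts and 35.5, 39.6 and 15.7 scaled CPM in the combined libraries, at least 10.4-fold higher (adjusted p = 0.00935, edgeR). Gpnmb, a lysosomal membrane glycoprotein, had 0 control counts and 7.10, 22.7 and 10.5, at least 5.58-fold higher (adjusted p = 0.0242). Galectin-3 (Lgals3) held 1 count in the control group and 40 in the combined group, a ratio of 31.9 with a counting interval of 5.40 to 1289 (adjusted p = 0.00935). These 3 genes were separated completely between the groups. None of the 8 was called without m12_WD+VC 2, and 1 was without m12_CD 1 or m12_CD 2. Trem2, the receptor after which these cells are often named, was not tested because its counts were too low.

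Osteopontin (Spp1), a secreted matrix protein made by lipid-laden macrophages and by bile duct cells, was at 0, 2.36 and 6.21 scaled CPM in control and 42.6, 58.0 and 86.5 in combined libraries (chromosome 5, 104435118 to 104441050). The group ratio was 21.2 with a counting interval of 7.01 to 105 (adjusted p = 0.000367, edgeR), and the lowest combined library was far above the highest control. Fabp4, a fatty acid carrier of fat cells and macrophages, rose from 1 count to 41, a ratio of 32.7 with an interval of 5.54 to 1321 (adjusted p = 0.0146). The fat cell hormones Adipoq, Lep and Retn were at 0 in all 6 libraries. The full list of 8 fat cell markers, Fabp4 among them, was not absent. It summed to 215 to 302 scaled CPM in control and 178 to 297 in combined libraries. Spp1 is itself on the list of 11 bile duct markers. The other 10 summed to 38.6, 11.8 and 62.1 scaled CPM in control and 28.4, 69.4 and 44.6 in combined libraries, with Cftr and Muc1 at 0, so the groups overlapped. Their part in the Spp1 result was not tested.

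**Figure D1:**
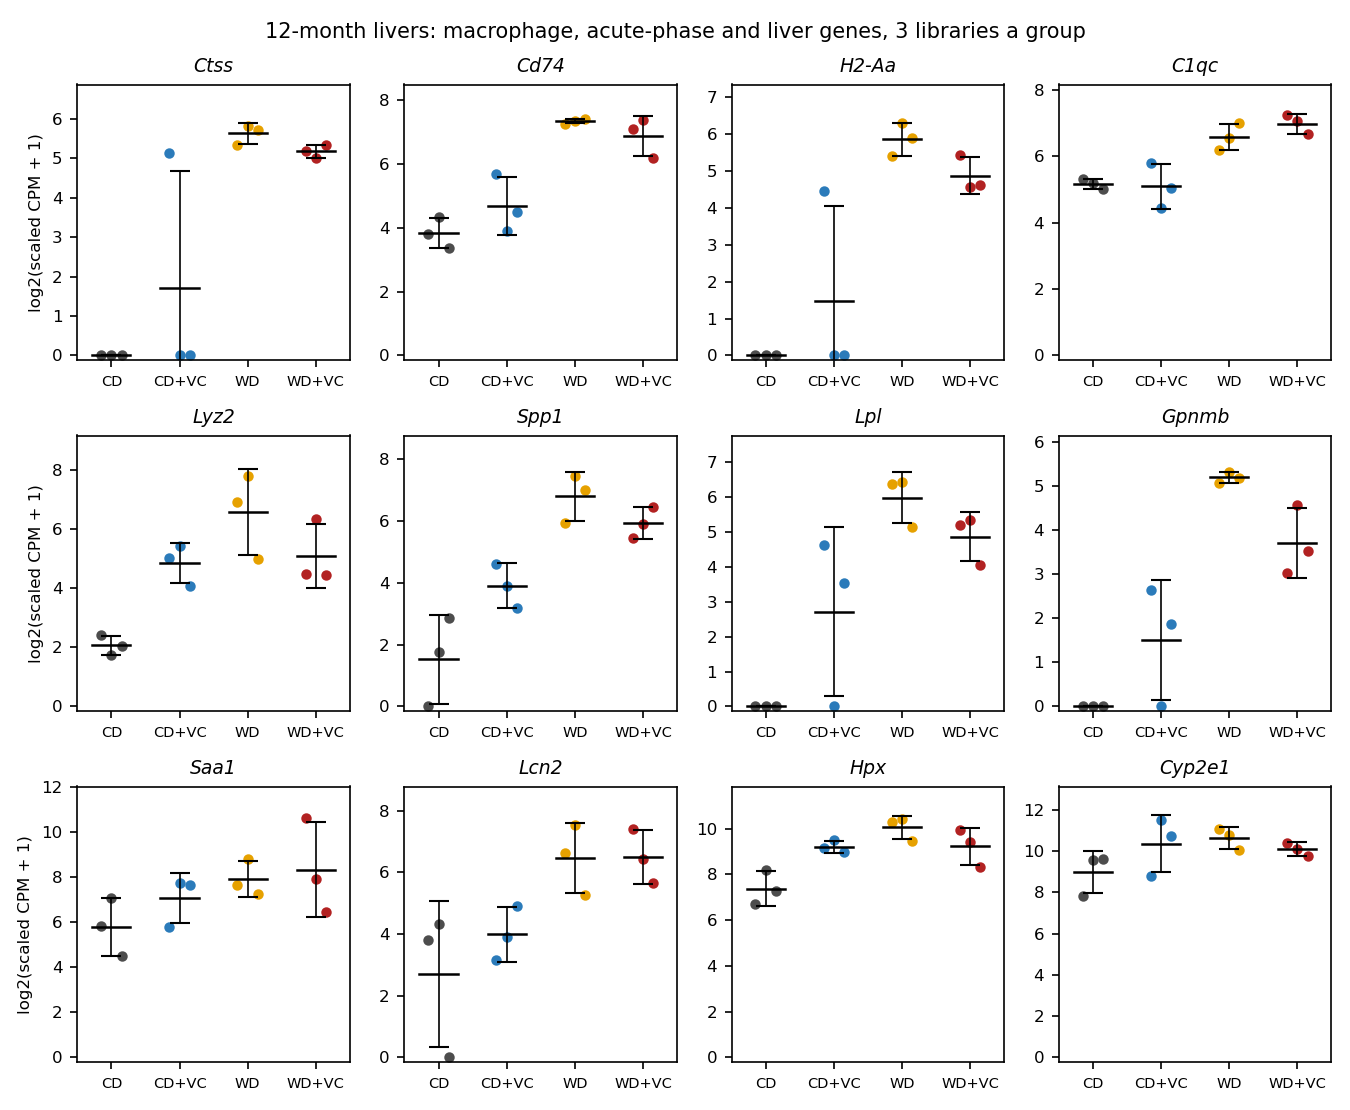
Level of 12 genes in the 4 groups of 12-month livers, as log2(scaled CPM + 1), with 1 point per library; the horizontal line is the mean of the log2 values and the bar their SD (n = 3). The points for Ctss, Cd74, H2-Aa and Spp1 in WD+VC lie above all CD points, while Saa1 overlaps and its high mean comes with 1 library at 1577 scaled CPM.

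Acute-phase proteins are secreted by hepatocytes when cytokines reach the liver, and 7 of 20 tested members rose and none fell. The median of the 20 was 1.27 and 19 were above 0. Serum amyloid A1 (Saa1, an apolipoprotein of inflammation) and its near-identical neighbour Saa2 are shown with lipocalin-2 (Lcn2, which traps bacterial iron carriers) because these 3 had the largest fold changes of the called members with control counts. Below are the 250 bases before each start site, 5′ to 3′ on the gene's strand, from RefSeq on GRCm38.p6, with a match to the C/EBP core TTGCNNAA in capitals. C/EBP proteins are hepatocyte transcription factors known for driving acute-phase genes.
Saa1 (chr7:46742981-46743230, minus strand): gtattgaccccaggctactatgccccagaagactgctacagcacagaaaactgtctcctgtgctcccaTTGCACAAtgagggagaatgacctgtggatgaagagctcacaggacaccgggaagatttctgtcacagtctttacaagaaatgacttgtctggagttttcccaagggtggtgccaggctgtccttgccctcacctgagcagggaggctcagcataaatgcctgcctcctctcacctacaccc
Saa2 (chr7:46751583-46751832, plus strand): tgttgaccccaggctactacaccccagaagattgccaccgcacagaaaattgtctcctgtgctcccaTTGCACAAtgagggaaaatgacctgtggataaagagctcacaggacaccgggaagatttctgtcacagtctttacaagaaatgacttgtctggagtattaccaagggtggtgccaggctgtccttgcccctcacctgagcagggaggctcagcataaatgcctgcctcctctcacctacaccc
Lcn2 (chr2:32387740-32387989, minus strand): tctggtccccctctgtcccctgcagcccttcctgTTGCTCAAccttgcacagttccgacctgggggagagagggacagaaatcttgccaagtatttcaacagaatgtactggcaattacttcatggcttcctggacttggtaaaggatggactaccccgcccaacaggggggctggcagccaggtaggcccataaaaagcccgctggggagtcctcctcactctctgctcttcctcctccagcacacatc

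The match begins 182, 183 and 216 bases before the start of Saa1, Saa2 and Lcn2. A search of the same 250 bases on both strands found the core at all 5 called members in the promoter table (C3, Lcn2, Orm3, Saa1 and Saa2), at 5 of 12 tested members that were not called, and at 9.56% of all 32851 promoters. The called genes Hp and Orm1 were not in that set. A list member counted if any of its promoters matched, while the 9.56% counts single promoters, so these shares differ in unit. The core is 1 of 6 motifs searched, all chosen after the values were known, and a match is a run of letters and no measured binding site.

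Saa1 was at 55.8, 132 and 21.7 scaled CPM in control and 1577, 243 and 86.5 in combined libraries (log2 fold change 3.09 ± 0.75 SE, adjusted p = 0.0114, edgeR). The third combined library lay below the second control, and without m12_WD+VC 1 the adjusted p was 0.35. Saa2 had the same shape, at 107, 70.8 and 12.4 and then 1286, 105 and 47.2, and reads may be split between the 2 genes. Lcn2 was at 12.9, 18.9 and 0 in control and at 170, 84.9 and 49.8 in combined libraries, with no overlap (log2 fold change 3.11 ± 0.77 SE, adjusted p = 0.0129).

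Haptoglobin (Hp), which binds free haemoglobin, rose from 766 ± 187 to 1777 ± 392 scaled CPM (adjusted p = 0.0307, edgeR), and complement C3 from 1576 ± 283 to 3796 ± 1217 (adjusted p = 0.0182). Both were higher in every combined library than in any control. Orm3, an orosomucoid gene, had 0 control counts and 49.7, 18.4 and 5.24 in the combined libraries, at least 5.84-fold higher (adjusted p = 0.0429). Its paralog Orm1 rose from 81.4 ± 27.9 to 243 ± 174 with overlapping groups (adjusted p = 0.0498), and reads may be split between them. These calls rested on few libraries: no acute-phase gene was called without m12_WD+VC 1 or without m12_CD 3, 1 was without m12_CD 1, 2 without m12_WD+VC 2 and 3 without m12_CD 2. With the 2 kinds of entry scaled separately 2 of the 20 were called.

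Markers of other cells gave few calls, and many were too low to test. Of 15 endothelial markers 5 were tested and only Stab2, a scavenger receptor of sinusoidal endothelium, rose, from 13.6 ± 3.97 to 50.3 ± 19 scaled CPM (adjusted p = 0.0225, edgeR). The list's summed level was 680 to 863 in control and 703 to 721 in combined libraries. None of 4 tested stellate and matrix genes passed in edgeR or DESeq2, and 3 had an unadjusted p under 0.05, with all 4 above 0 and a median of 1.66. Collagen I (Col1a1), too low to be among the 4, was called higher with no expression filter, without the smallest of the 24 libraries, and without m12_WD+VC 1 or m12_WD+VC 3. Collagen III (Col3a1) was at 6.01 ± 5.91 and 26.2 ± 12.0 (adjusted p = 0.127). Among 18 lymphocyte markers only Zap70, a kinase of the T cell receptor, was tested, and it fell from 60.5 ± 18.4 to 14.0 ± 8.14 (adjusted p = 0.0347). This call was lost with DESeq2 (adjusted p = 0.188), with RLE factors (0.0769) and on leaving out any library but m12_CD 2. The other 17 markers, in sum and untested, were at 3.01 ± 2.61 scaled CPM (3 counts) in control and 15.7 ± 10.1 (25 counts) in combined libraries, the opposite direction. With no expression filter 13 of the 18 had a value, with a median of 1.56 and Zap70 as the only call. The markers at 0 in all 6 included Cd3d, Cd8a, Nkg7, Gzma, Gzmb, Klrb1c and Ccl5. No neutrophil marker was tested. Of 7 tested interferon genes 1 rose, the transcription factor Irf1, from 7.04 ± 6.22 to 36.8 ± 7.50 (adjusted p = 0.0414). The Stab2 and Irf1 calls were also lost with DESeq2, Irf1 on leaving out any of the 6 libraries and Stab2 on leaving out any but m12_WD+VC 1.

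Among 22 hepatocyte markers 3 rose and none fell, with a median of 0.22. Hemopexin (Hpx), which carries haem in plasma, was at 103, 290 and 152 scaled CPM in control and 980, 678 and 320 in combined libraries (3.57-fold, adjusted p = 0.00486, edgeR), and the lowest combined value was just above the highest control. Apolipoprotein B (Apob) rose from 156 ± 76.9 to 385 ± 58.7 (adjusted p = 0.0312) and fetuin-A (Ahsg) from 599 ± 195 to 1394 ± 578 (adjusted p = 0.0303). Albumin (Alb) was at 1335, 4684 and 5065 in control and 2423, 2991 and 1917 in combined libraries and did not pass (adjusted p = 0.447). The first control library, with the lowest albumin, also held the lowest Hpx, Apob and Ahsg. Without it 1 hepatocyte marker was called higher and 1 lower.

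The exposure leads to the enzymes that handle VC. Cyp2e1 (chromosome 7, 140763739 to 140774987), which oxidises VC, was at 223, 758 and 776 scaled CPM in control and 1357, 1114 and 865 in combined libraries, 9 months after the last exposure. Every combined library was above every control, but the difference did not pass (log2 fold change 0.94 ± 0.44 SE, adjusted p = 0.224, edgeR). Of 21 tested genes of VC metabolism and glutathione 2 rose and 1 fell, with a median of 0.94. The retinal and aldehyde dehydrogenase Aldh1a1 rose from 34.2 ± 24.2 to 114 ± 14.2 (adjusted p = 0.0265), and the microsomal epoxide hydrolase Ephx1 from 22.9 ± 20.7 to 79.7 ± 25.9 (adjusted p = 0.0398). Gss, which joins glycine to complete glutathione, fell from 236, 208 and 180 to 14.2, 39.6 and 39.3 (5.85-fold, adjusted p = 0.00376). Gss overlaps Acss2 and another gene on the opposite strand, and without a stated strand setting reads of such pairs cannot be told apart. Neither of the 2 genes that rose was called without m12_CD 1 or without m12_WD+VC 2.

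Of 18 tested drug-metabolism genes Cyp3a11, a broad P450 of the hepatocyte, rose from 32.4 ± 22.9 to 129 ± 66.1 scaled CPM (adjusted p = 0.0194, edgeR) and Abcc3, an export pump for conjugates, from 21.8 ± 8.91 to 65.0 ± 25.0 (adjusted p = 0.0242). None of the 18 was called without m12_CD 1, m12_CD 3 or m12_WD+VC 2. The fatty acid hydroxylase Cyp4a10, a classic target of the lipid-sensing receptor PPAR alpha, rose from 8.59, 11.8 and 9.32 to 71.0, 73.6 and 31.5 (5.68-fold, adjusted p = 0.0312). It was the only 1 of 23 tested fatty acid oxidation genes to pass, while 22 were above 0 with a median of 0.88. Ppara itself was at 4.18 ± 4.81 and 23.3 ± 7.95 (adjusted p = 0.0754), the peroxisomal enzyme Ehhadh at 12.2 ± 12.4 and 43.2 ± 19.3 (adjusted p = 0.0601). No oxidation gene was called without m12_CD 1, m12_CD 2, m12_WD+VC 1 or m12_WD+VC 2, or with the 2 kinds of entry scaled separately.

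Of 15 tested genes of the unfolded protein response, calreticulin (Calr) rose from 476 ± 84.5 to 887 ± 229 scaled CPM (adjusted p = 0.0398, edgeR) and its membrane-bound relative calnexin (Canx) fell from 371 ± 79.7 to 153 ± 11.7 (adjusted p = 0.00962). Both are lectin chaperones of the endoplasmic reticulum, and in both the groups were separate. Of 10 tested genes of the NRF2 and iron list, Osgin1, a growth inhibitor induced by oxidative stress, rose from 9.51 ± 3.34 to 51.7 ± 36.4 (adjusted p = 0.0251). Ferritin heavy chain (Fth1), which stores iron, rose from 210 ± 112 to 473 ± 67.2 (adjusted p = 0.0339). The nuclear RNA Neat1 rose from 31.0 ± 19.9 to 137 ± 51.8 (adjusted p = 0.0188). The calls of Calr and Fth1 were each lost in 9 of 14 alternative settings, that of Osgin1 in 5 of 13 and that of Neat1 in 3 of 14. Canx was lost in 2 of 14, 1 of them DESeq2 (adjusted p = 0.134). Each of these calls was lost without m12_WD+VC 2. Neat1 stays in the nucleus and belongs to an RNA quality list, of whose 16 members 4 had an entry and 2 were tested. These entries summed to 21.5 to 68.3 in control and 152 to 243 in combined libraries. Neat1 itself makes up much of that sum, which is therefore no separate measure. The part of this difference in the results was not tested.

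**Figure D2:**
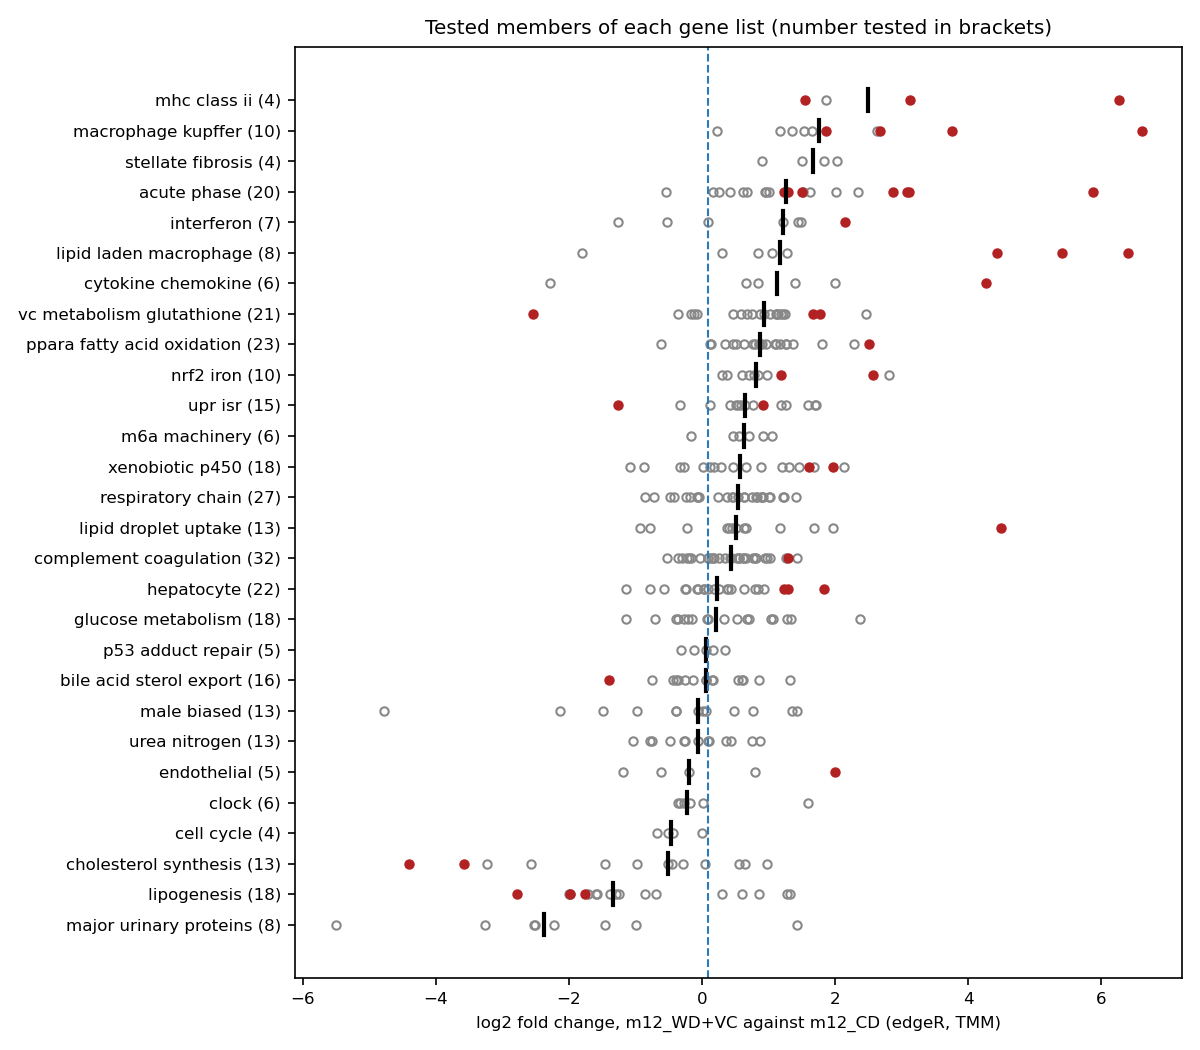
Log2 fold change of the combined group against control for the tested members of each gene list with at least 4 of them, as 1 circle per gene, filled red where the adjusted p was under 0.05; the black bar is the list median and the dashed line the median of all tested genes (0.08). MHC class II and macrophage genes have medians of 2.50 and 1.76, and major urinary proteins and lipogenesis genes lie lowest.

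Genes of fatty acid and sterol synthesis included 5 that fell. Of 18 tested lipogenic genes 3 fell and none rose, with a median of -1.34 and 5 above 0. Fads1 and Fads2, the delta-5 and delta-6 desaturases that make long polyunsaturated fatty acids, both fell. Fads2 (chromosome 19, 10062765 to 10101746) was at 309, 449 and 553 scaled CPM in control and 156, 120 and 113 in combined libraries (log2 fold change -1.75 ± 0.35 SE, adjusted p = 0.00265, edgeR). Fads1 was at 176, 135 and 183 and then 28.4, 42.5 and 44.6 (3.95-fold lower, adjusted p = 0.00935). Both genes were lower in every combined library than in any control. Acss2, which turns acetate into acetyl-CoA, fell from 64.9 ± 56.1 to 10.2 ± 3.49 (adjusted p = 0.0242), but the first control held 4.29 and the groups overlapped. Agpat2, an acyltransferase of triglyceride synthesis, was at 8.59, 35.4 and 28 in control and 42.6, 75.0 and 62.9 in combined libraries (adjusted p = 0.0618) and was called higher with RLE factors and with the replicate block.

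The core enzymes of fatty acid synthesis did not pass, though Scd1, Fasn and Acly were called lower with no expression filter. Stearoyl-CoA desaturase (Scd1) was at 94.5, 1176 and 2733 scaled CPM in control and 277, 457 and 231 in combined libraries (adjusted p = 0.203, edgeR). Fatty acid synthase (Fasn) was at 21.5, 116 and 239 and then 28.4, 46.7 and 42.0 (adjusted p = 0.187), and ATP citrate lyase (Acly) at 59.5 ± 36.0 and 16.5 ± 5.92 (adjusted p = 0.167). For Scd1 and Fasn the first control library was the lowest of all 6. Srebf1, which encodes the SREBP-1 activator of these genes, was at 41.8 ± 25.1 and 48.8 ± 24 (adjusted p = 0.832). The number of lipogenic genes that fell was 1 without m12_WD+VC 2 and 2 or 3 when any other library was left out. With DESeq2 only Fads2 was called lower, while Fads1 (adjusted p = 0.0962) and Acss2 (0.167) were lost. With RLE factors in edgeR Acss2 was lost as well (adjusted p = 0.0543).

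Of 13 tested cholesterol synthesis genes 2 fell, with a median of -0.51. Insig1, a brake on SREBP that is itself switched on when sterol is low, was at 73.0, 66.1 and 83.9 scaled CPM in control and 0, 4.25 and 10.5 in combined libraries, 12.0-fold lower without overlap (adjusted p = 0.0044, edgeR). Cyp51, the sterol 14-demethylase, fell from 25 counts in the control group to 1, a ratio of 31.4 with a counting interval of 5.14 to 1289 (adjusted p = 0.0114). It overlaps Akap9 on the other strand, which was at 76.0 ± 44.5 and 26.3 ± 8.20. Hmgcs1 was at 11.1 ± 6.23 and 1.35 ± 1.31 (adjusted p = 0.282). The squalene synthase gene Fdft1 was at 727 ± 103 and 1109 ± 172 (adjusted p = 0.147) and was called higher with DESeq2, RLE factors and scaling by overlap class, as was lanosterol synthase (Lss) with RLE factors, so there 2 genes rose and 2 fell. Cyp51 was not called with DESeq2 (adjusted p = 0.0668). Without m12_WD+VC 2 neither Insig1 nor Cyp51 was called, and without m12_CD 1 or m12_WD+VC 3 1 of them was. Of 16 tested bile acid genes only Cyp8b1 changed, the 12-alpha-hydroxylase that sets the share of cholic acid, falling from 98.8, 99.2 and 87.0 to 21.3, 48.1 and 26.2 (2.64-fold, adjusted p = 0.0222), a call lost with DESeq2, with RLE factors and without m12_CD 2, m12_WD+VC 1 or m12_WD+VC 3. The sterol element TCACNCCAC was in the 250 bases upstream of none of the 4 called lipogenic and sterol genes in the promoter table and of 1.05% of all promoters.

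Fads3 (chromosome 19, 10041569 to 10060110), which lies 2655 bases from Fads2 and ends towards it on the other strand, was at 6995, 9106 and 9158 scaled CPM in control and 384, 294 and 763 in combined libraries. This was 17.1-fold lower (log2 fold change -4.10 ± 0.65 SE, adjusted p = 0.000144, edgeR) with the groups far apart. Fads2 was at 437 ± 122 and 130 ± 23.3. Whether reads of Fads2 were counted for Fads3 was not tested, so the falls of both may not be separate results. Acss2os, a noncoding RNA antisense to Acss2 (chromosome 2, 155547040 to 155556930), was at 3148, 3924 and 6714 and then 305, 371 and 501 (-3.51 ± 0.47 SE, adjusted p = 1.04e-05). It overlaps Acss2, which also fell, so the pair cannot be told apart without the strand setting.

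Usp24, a deubiquitinase gene on chromosome 4 (106316213 to 106441322), was at 919, 420 and 376 scaled CPM in control and 42.6, 25.5 and 28.8 in combined libraries (18.4-fold lower, adjusted p = 5.74e-05, edgeR). Tom1l2, an endosomal sorting adaptor, had the smallest adjusted p of the named genes. It was at 743, 796 and 857 in control and 78.1, 82.1 and 121 in combined libraries (-3.04 ± 0.36 SE, adjusted p = 1.33e-06).

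Other large decreases at named genes included Ces3b, a carboxylesterase of the hepatocyte, from 297 ± 16.6 to 35.4 ± 20.5 scaled CPM (adjusted p = 0.0022, edgeR). The DNA helicase gene Blm fell from 406 ± 131 to 55.2 ± 19.1 (adjusted p = 0.0014) and the ephrin Efna3 from 414 ± 287 to 41.5 ± 14.1 (adjusted p = 0.00106). Slc25a44, a mitochondrial carrier of branched-chain amino acids, fell from 68.0 ± 43.6 to 7.02 ± 4.35 (adjusted p = 0.00716). The pseudogene Nlrp5-ps fell from 45 counts to 2, a ratio of 28.3 with a counting interval of 7.38 to 240 (adjusted p = 0.00255). Pitx3, a transcription factor gene, fell from 26 counts to 1 (adjusted p = 0.0265) and overlaps the fatty acid elongase gene Elovl3 on the other strand. Separate groups were part of the rule that chose these genes.

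Among the largest increases outside the lists, Shc2, a signalling adaptor, had 0 control counts and 63.9, 51.0 and 49.8 scaled CPM in the combined libraries, at least 17.0-fold higher (adjusted p = 0.00058, edgeR). Ttc14 was at least 7.96-fold higher, Kbtbd11 at least 8.76-fold and the heat shock protein Hsph1 at least 7.70-fold, all from 0 control counts. Adam11, a membrane protein of the ADAM family, rose from 1 count to 42, a ratio of 33.5 with an interval of 5.68 to 1352 (adjusted p = 0.00346). The Notch regulator Dtx1 rose from 1 to 38 counts (adjusted p = 0.00496). Shc2, Ttc14 and Kbtbd11 overlap other annotated genes on the opposite strand.

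**Figure D3:**
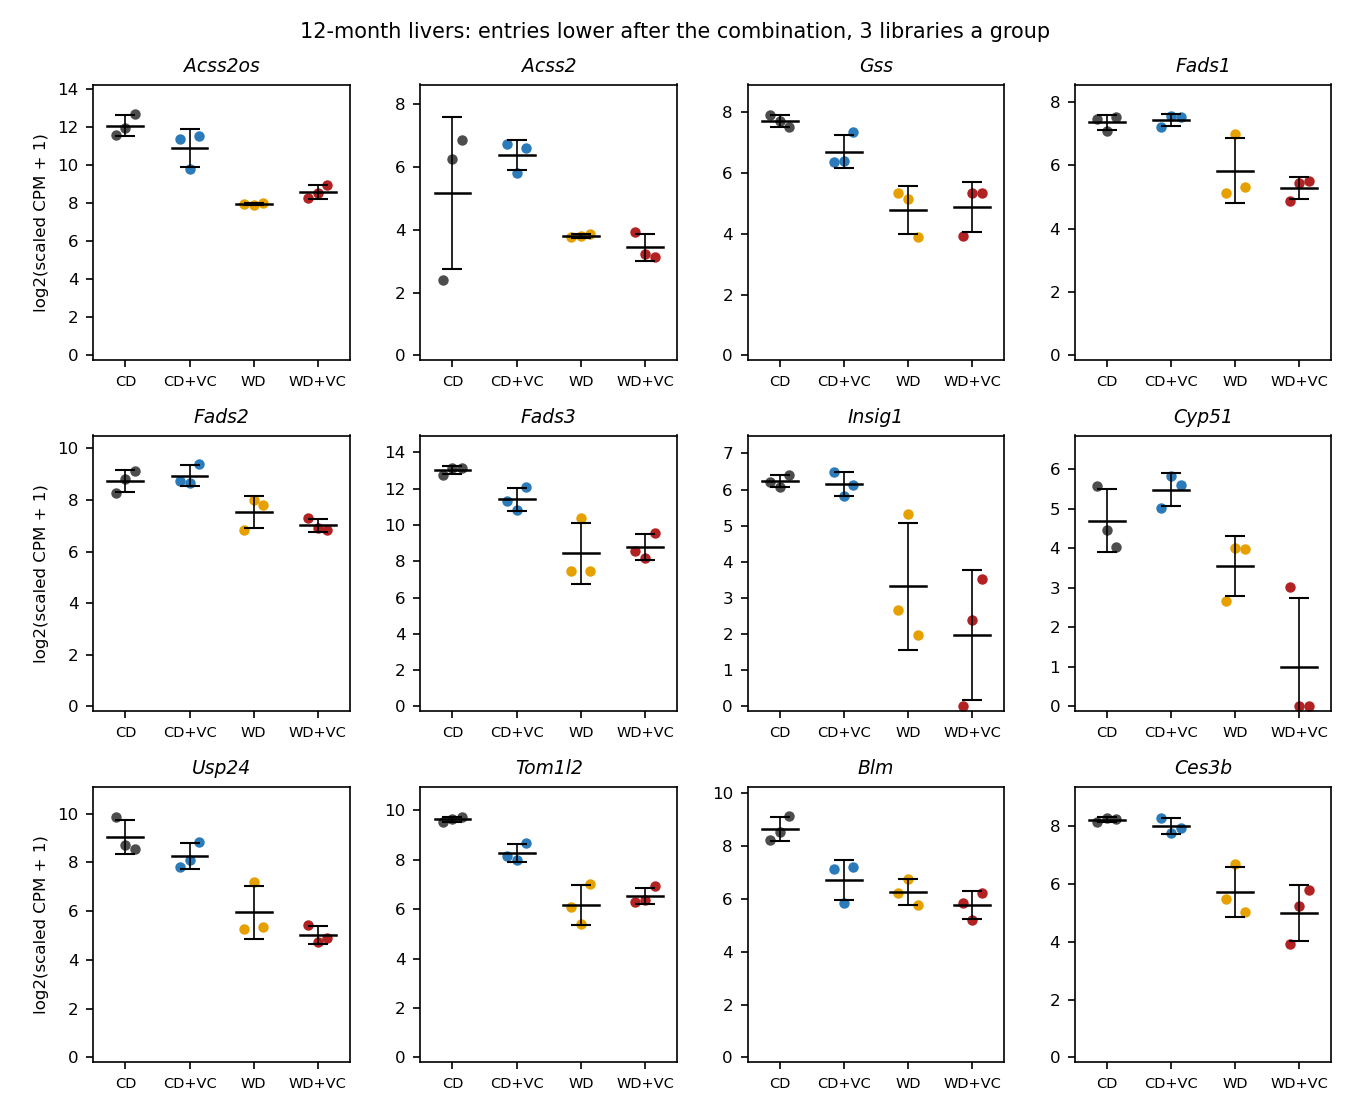
Level of 12 genes that fell after the combination, in the 4 groups of 12-month livers, as log2(scaled CPM + 1), drawn as points with mean and SD of the log2 values (n = 3). WD+VC points lie below CD points except for Acss2, where the first control library (4.29 scaled CPM) is lowest.

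Lists tied to tumour growth and RNA methylation had no call, except Ly6d of the tumour list with no expression filter. The title of the series names tumour formation and the epitranscriptome as its interest. The oncofetal protein Afp was at 116, 113 and 140 scaled CPM in control and 71.0, 65.1 and 70.8 in combined libraries (adjusted p = 0.302, edgeR), so all combined values were the lower ones. None of 4 tested cell cycle genes passed in edgeR or DESeq2, 1 of them having an unadjusted p under 0.05, and Mki67 held 0, 0 and 3.11 in control and 0, 2.83 and 5.24 in combined libraries. Gpc3, another oncofetal gene, was at 0 in all 6. Of the m6A machinery 6 genes were tested and none passed in either tool, 0 of them at an unadjusted p under 0.05, with a median of 0.63. The writer Mettl3 was at 142 ± 5.98 and 124 ± 25.1 (adjusted p = 0.796), and its log2 fold change of -0.17 became 0.11 with RLE factors or DESeq2. The eraser Alkbh5 was at 13.1 ± 8.51 and 18.6 ± 4.71 (adjusted p = 0.705). Fto was at 3.40 ± 3.55 and 3.57 ± 3.98 and the reader Ythdf2 at 7.79 ± 5.08 and 9.46 ± 10.9, both too low to test. The SE of 0.68 on the log2 fold change of Alkbh5 (0.55) shows how little a gene at that level can tell at this depth.

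Major urinary proteins, abundant secreted products of the male mouse liver, had the lowest median of the lists, -2.37 over 8 tested genes, or -1.84 with a gene at 0 counts taken at its bound. None passed in edgeR or DESeq2, although 5 had an unadjusted p under 0.05, and Mup20 went against the rest, at 65.2 ± 44.1 and 187 ± 98.3 scaled CPM (adjusted p = 0.17, edgeR). Mup11 was called lower with scaling by overlap class, among entries without an overlap and without m12_WD+VC 1, and Mup3 and Mup7 with no expression filter. Their near-identical sequences leave the split between family members uncertain. No call was made either among 13 male-biased, 2 female-biased, 18 glucose, 27 respiratory chain, 13 urea cycle, 6 clock and 5 p53 and DNA repair genes tested, in edgeR or DESeq2. At an unadjusted p under 0.05 these lists held 3, 1, 4, 2, 1, 1 and 0 genes. Other settings of edgeR called some of them: Txnip higher with RLE factors, with the compared groups alone, with no filter and without m12_WD+VC 3, Pck1 lower with scaling by overlap class and without m12_CD 1, and the ATP synthase genes Atp5b and Atp5h higher with RLE factors. Complement and coagulation had 32 tested genes and 1 call, C3.

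The same combination right after the 12 weeks of exposure gave 33 calls (0.786%), 13 higher (0.31%) and 20 lower (0.476%). These libraries are other than the 12-month ones, so both times were compared gene by gene. At both times 7 genes were called, all in the same direction, which is 2.78% of the 12-month calls and 21.2% of the 12-week calls: Acss2os, App, Efna3, Hcn3, Hectd2, Nlrp5-ps and Usp24, of which App (the amyloid precursor protein) alone was higher. Of the 252 genes called at 12 months 206 (81.7%) had the same sign at 12 weeks, against 60.2% of all tested genes. Those called higher at 12 months had a median log2 fold change of 2.01 then and 0.52 at 12 weeks, and those called lower -1.63 and -0.52. Usp24 had been at 389, 56.9 and 148 scaled CPM in w12_CD and 8.67, 16.2 and 45.9 in w12_WD+VC (adjusted p = 0.0104, edgeR). The 12-week count fell to 1 without w12_WD+VC 1, 12 without w12_WD+VC 2 and 13 without w12_CD 1, and was 57 without w12_WD+VC 3.

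The macrophage genes had no call in edgeR at 12 weeks, 2 of the 10 having an unadjusted p under 0.05, with a median of 1.06, and Cd74 was then at 15.1, 7.11 and 0 scaled CPM in control and 23.9, 4.06 and 13.1 in combined libraries. The change between the times was itself not called for Cd74 (adjusted p = 0.5, edgeR) or Spp1 (adjusted p = 0.594). In the acute-phase list 1 gene was called at 12 weeks, the constitutive serum amyloid Saa4, from 265 ± 93.7 to 994 ± 139 (adjusted p = 0.0101), and at 12 months it was at 232 ± 65.9 and 460 ± 158 (adjusted p = 0.118). Cebpb, which encodes one of the C/EBP factors, was at 71.6 ± 16.3 and 263 ± 40.5 at 12 weeks (adjusted p = 0.00639) and at 147 ± 25.7 and 142 ± 28.2 at 12 months. For Cebpb the difference between the times had an adjusted p of 0.0818.

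A test of the difference between the times called 5 genes (0.119%), all with a more negative change at 12 months. Fads2 was at 143, 81.8 and 48.4 scaled CPM in control and 275, 231 and 210 in combined libraries at 12 weeks, where every combined library was higher, and at 12 months every combined library was lower (difference -3.16 ± 0.51 SE, adjusted p = 0.00207, edgeR). Epha2, an ephrin receptor, was at 21.1 ± 21.7 and 59.5 ± 13.3 at 12 weeks and at 83.7 ± 15.1 and 11.8 ± 10.8 at 12 months (-4.08 ± 0.88 SE, adjusted p = 0.0387). Thoc6, an mRNA export factor, was at 54.6 ± 31.3 and 107 ± 39.9 and then 197 ± 43.4 and 47.7 ± 10.6 (-2.96 ± 0.58 SE, adjusted p = 0.0253). In Fads2, Epha2 and Thoc6 the control level also differed between the times, a difference that was not tested: for Fads2 it was 91.2 ± 48.2 at 12 weeks and 437 ± 122 at 12 months. Tom1l2 was lower in combined libraries at both times, by more at 12 months, and the predicted gene Gm6297 completes the 5, with control at 1110 ± 268 and 1655 ± 297. The number of genes called was 1 to 31 when 1 library was left out, with 31 without w12_CD 3. It was 1 without m12_CD 3, m12_WD+VC 1, m12_WD+VC 3 or w12_WD+VC 2, 2 without m12_CD 1, m12_WD+VC 2 or w12_CD 1, and 3 without w12_CD 2.

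**Figure D4:**
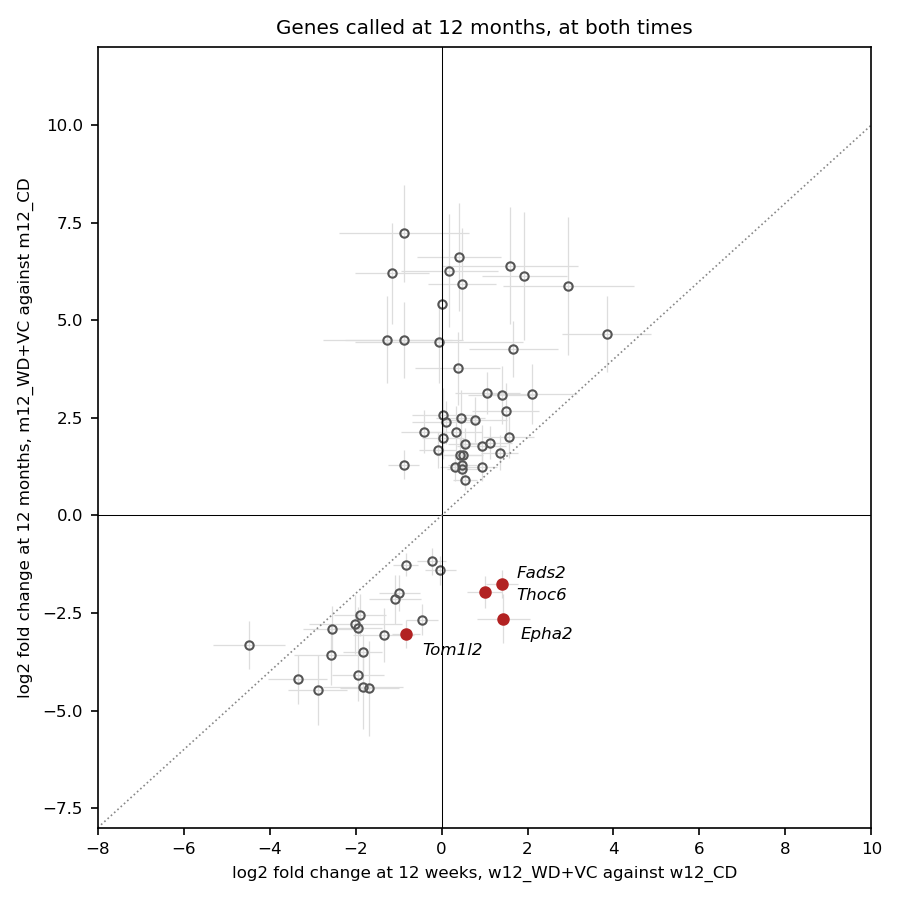
Log2 fold change of the combined group against control at 12 weeks (horizontal) and 12 months (vertical) for the named genes called at 12 months, with SE bars; the dotted line marks equal change, and filled red points are genes for which the difference between the times had an adjusted p under 0.05. Fads2, Epha2 and Thoc6 are above 0 at 12 weeks and below 0 at 12 months.

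The other 12-month groups show where the combination stood beside each exposure alone. These comparisons share libraries with the one above, so their values are given side by side only. Against control, 1028 genes (24.5%) were called after Western diet alone, 562 higher (13.4%) and 466 lower (11.1%). After VC alone 219 (5.22%) were called, 172 higher (4.1%) and 47 lower (1.12%). Of the 10 macrophage genes 7 rose after Western diet alone and 1 after VC alone, with medians of 2.36 and 1.01. Cd74 was at 159 ± 7.35 scaled CPM in m12_WD and 28.3 ± 18.9 in m12_CD+VC, and Spp1 at 120 ± 57.7 and 15.2 ± 7.84. Of the 21 VC metabolism and glutathione genes 12 rose and 1 fell after Western diet alone, and 9 rose and none fell after VC alone. Cyp2e1 was at 1663 ± 550 in m12_WD and 1690 ± 1240 in m12_CD+VC, called higher than control in both (adjusted p = 0.0111 and 0.0411, edgeR). Some of the large decreases were also called after Western diet alone. Tom1l2 was at 78.7 ± 45.1 in m12_WD (adjusted p = 1.36e-07, edgeR) and 313 ± 79.9 in m12_CD+VC. Acss2os was at 249 ± 11.7 (adjusted p = 2.41e-07) and 2197 ± 1151 in the same order. Cyp51, at 11.7 ± 5.48 in m12_WD, was not called (adjusted p = 0.242). The 3 m12_WD libraries held 407177 to 962493 counts and the m12_CD+VC libraries 126160 to 384262.

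Tested directly against Western diet alone, the combination differed in 24 genes (0.572%), 23 higher (0.548%) and 1 lower (0.0238%), and no member of any gene list was among them. None of 22 hepatocyte markers and none of 23 fatty acid oxidation genes lay above 0, however, with medians of -0.78 and -0.85. The median of all tested genes was -0.04. At an unadjusted p under 0.05 these 2 lists held 11 and 7 genes. Zfhx2os, antisense to Zfhx2, was at 355, 149 and 246 scaled CPM after the combination and 21.6, 28 and 35.3 after Western diet alone (8.20-fold, adjusted p = 7.52e-06, edgeR), and at 302 ± 114 in control. Zfp668, a zinc finger gene, was at 38.5 ± 22.3, 0.600 ± 1.04 and 34.0 ± 14.4 in the same order (adjusted p = 9.08e-05). Lrfn4, a synaptic adhesion gene, was at 242 ± 132, 42.5 ± 26.0 and 189 ± 12.9 (adjusted p = 0.00149). For all 3 genes the combined and the control levels overlapped, with the Western diet libraries below both. Each of the 3 overlaps the span of a gene on the other strand (Zfhx2, Zfp646 and Pcx). The origin of their reads was not tested.

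Mfsd4, a sugar transporter gene, was at 287 ± 62.2 scaled CPM after the combination, 87.5 ± 14.9 after Western diet alone and 300 ± 46.1 in control (adjusted p = 0.00145 for combination against diet, edgeR). It overlaps the span of Elk4 on the other strand, and the origin of its reads was not tested. The histone methyltransferase Kmt2d was at 84.4 ± 10.4, 19.8 ± 3.74 and 194 ± 29.2 (adjusted p = 0.00383), so the combination lay between the other groups, and it also passed against control (adjusted p = 0.0395). Pigr, which carries IgA into bile, was the only gene lower than with diet alone, at 1018 ± 116 against 2477 ± 570 (adjusted p = 0.0317), with control at 1017 ± 327. DESeq2 called 13 genes in this comparison and 11 were called when only the compared groups were fitted. The count was 10 without m12_WD+VC 3 and 13 without m12_WD 3.

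**Figure D5:**
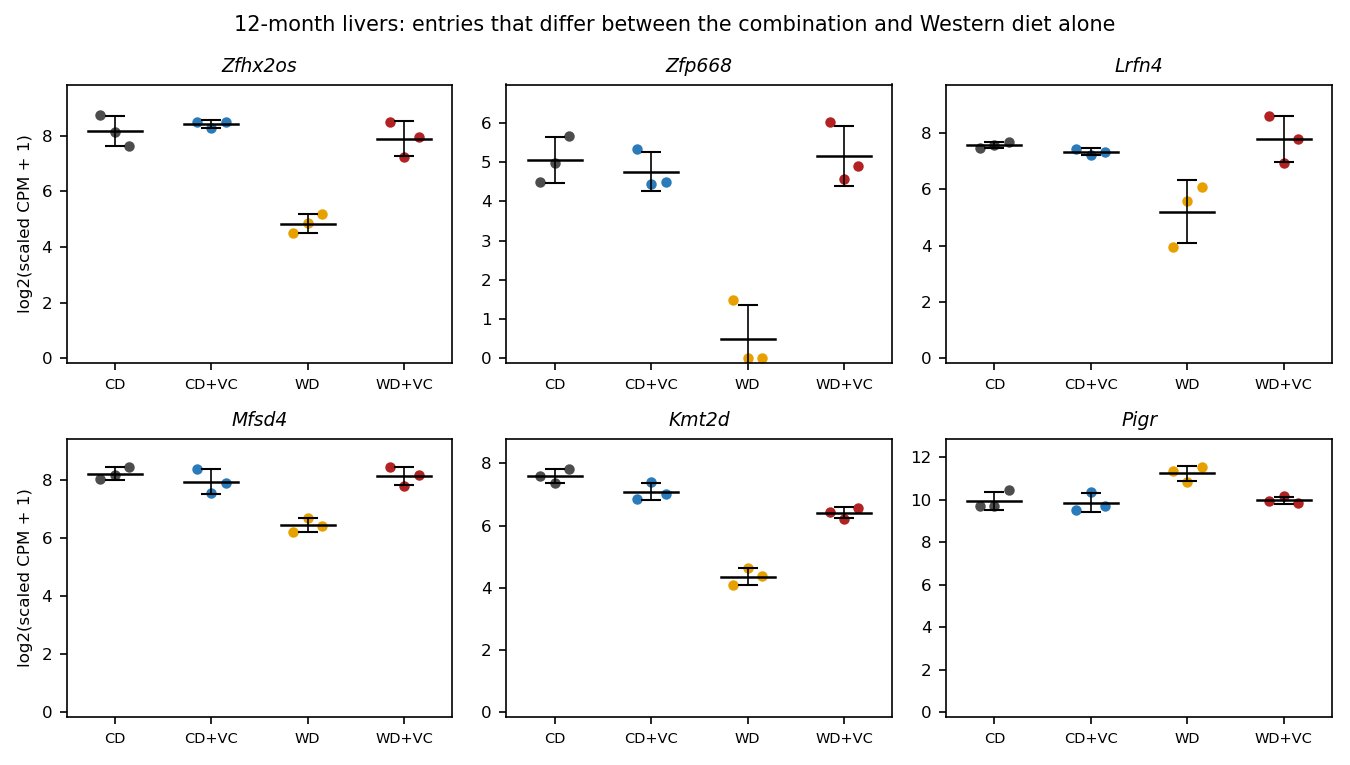
Level of 6 genes that differed between the combination and Western diet alone at 12 months, as log2(scaled CPM + 1), drawn as points with mean and SD of the log2 values (n = 3). In Zfhx2os, Zfp668, Lrfn4, Mfsd4 and Kmt2d the WD points are lowest, and in Pigr they are highest.

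Against VC alone the combination differed in 76 genes (1.81%), 30 higher (0.715%) and 46 lower (1.1%). Of the 18 lipogenic genes 6 were lower than with VC alone and none higher: Fasn, Acly, Acss2, Me1, Fads1 and Fads2. Fasn was at 39.0 ± 9.49 scaled CPM after the combination and 245 ± 35.6 after VC alone (adjusted p = 0.0438, edgeR), and Acly at 16.5 ± 5.92 and 132 ± 39.8 (adjusted p = 0.0324). Malic enzyme (Me1), which supplies NADPH, was at 13.0 ± 2.13 and 64.9 ± 21.3 (adjusted p = 0.0425). Fads2 was at 130 ± 23.3 and 503 ± 151 (adjusted p = 0.00253). The sterol genes that were lower included Insig1 and Cyp51, and the squalene synthase gene Fdft1 was higher, at 1109 ± 172 and 506 ± 65.2 (adjusted p = 0.0219).

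Albumin was at 2444 ± 538 scaled CPM after the combination and 12282 ± 4334 after VC alone (adjusted p = 0.00253, edgeR), with the gluconeogenic enzyme Pck1 at 201 ± 80.7 and 654 ± 277 (adjusted p = 0.0267). Only 1 of the 22 hepatocyte markers was above 0, with a median of -0.84. Their summed level was 11196 to 16394 after the combination and 23527 to 41777 after VC alone. Entries without an overlap held 20.7 ± 2.41% and 26.6 ± 4.63% of the counts (SD, n = 3). The part of this share in these differences was not tested. Cd74 at 123 ± 47.2 and 28.3 ± 18.9 (adjusted p = 0.028), C1qc at 127 ± 25.1 and 35.9 ± 17.4 (adjusted p = 0.0316) and Lgals3 at 27.8 ± 11.5 and 0.872 ± 1.51 (adjusted p = 0.0267) were higher than with VC alone. Lgi4, which overlaps Fxyd3 on the other strand, was at 96.6 ± 32.5 and 12.5 ± 9.21 (adjusted p = 0.00941). The count of 76 was 40 with DESeq2, 46 with RLE factors and 158 when only the compared groups were fitted. It fell to 2 without m12_WD+VC 2, 29 without m12_CD+VC 2, 32 without m12_WD+VC 3, 34 without m12_CD+VC 3 and 35 without m12_WD+VC 1.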

How the data were processed

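Mouse liver RNA, depleted of ribosomal RNA, was sequenced as TruSeq RNA v2 libraries (HiSeq2500), per the labels' protocols. The submitters' processing notes name Trimmomatic 0.38, HISAT2 2.1.0, HTSeq 0.11.2 and mm10. Which annotation, strand setting and filters were used is not given in the sources used. The authors deposited raw counts for 24421 symbols in 24 libraries, and log2 values per library, which were checked against the counts (0 values differed by more than 1e-06) and not tested. Of the symbols 15541 had a count.

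After edgeR's expression filter 4198 genes remained. Their counts were scaled with TMM and fitted with edgeR 4.0.16 in R 4.3.3 as 1 quasi-likelihood model of the 8 groups, Benjamini-Hochberg adjusted over all tested genes, threshold 0.05. The common biological coefficient of variation was 0.317. The smallest library, w12_WD 3, had 607 counts, all others between 126160 and 962493. Chi-square per degree of freedom between replicates was 2.42 to 10.6, above sampling noise. Scaled CPM is a count divided by the library total times its TMM factor, as CPM. Folds against 0 counts use a floor of 3 counts over the group, and counting intervals (exact, 95%) cover counting error only. Symbols were placed on GENCODE M21 (GRCm38) and overlaps found with bedtools 2.31.1. Promoter sequences are from RefSeq.

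The members and the 37 gene lists were chosen with earlier results of these data known. Genes named are, in each direction, the up to 12 with the largest change among those with adjusted p under 0.05, a mean of 10 CPM or more in either group, separate groups and no predicted symbol. Up to 4 called members per list, 9 genes of interest in every case, and up to 5 per direction from the other 4 comparisons were added. Uncalled and further list members, and genes called at both times, were named after their values were seen, some genes are not reported here, and values are given for a selection. The test was tried on simulated data. Alternatives were RLE factors, no filter, DESeq2 1.42.0, a replicate block, fits of the compared groups alone or of 23 libraries, scaling by overlap class, and leaving out each library. Testing no-overlap entries by themselves, and list counts under each alternative, were chosen after seeing the data.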

Additional observations from a re-analysis of the deposited data

Results flagged for a closer look

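The change made by the combination differed between the 12-month and the 12-week livers in 5 genes, by edgeR's test of the difference itself. The difference in log2 fold change, 12 months minus 12 weeks, was -4.08 for Epha2, -3.16 for Fads2, -2.96 for Thoc6, -2.21 for Tom1l2 and -1.85 for Gm6297. Epha2, Fads2 and Thoc6 had positive values at 12 weeks and passed as lower at 12 months. Tom1l2 was negative at both times. Gm6297, a predicted gene, passed as higher at 12 weeks, from 1110 ± 268 to 3021 ± 881 scaled CPM (adjusted p = 0.0101), and at 12 months was at 1655 ± 297 and 1230 ± 259 (adjusted p = 0.441).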

How the results depend on the processing

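Against control at 12 months, 252 calls became 126 with DESeq2, 163 with no expression filter, 85 among entries without an overlap, and 49 to 169 when 1 library was left out. At 12 weeks, 33 became 51 with no filter, 6 among entries without an overlap, and 1 to 57 with a library left out. The difference between the times, 5, became 1 with RLE factors, 2 among entries without an overlap, 13 with no filter, 12 with scaling by overlap class, and 1 to 31 with a library left out. Against Western diet alone, 24 became 13 with DESeq2, 11 with the compared groups alone, 9 among entries without an overlap, and 10 to 24 with a library left out. Against VC alone, 76 became 40, 158 and 38 in that order, 46 with RLE factors, and 2 to 72 with a library left out. Of the 61 genes chosen by the naming rule for the comparison with control, only Mettl3, not called, changed sign, to 0.11 with RLE factors and with DESeq2; other genes in the text were not followed through the alternatives one by one. Of the 56 named calls 17 held in each alternative that gave them a value, which was 12 to 14 of 14: Acss2os, Adam11, Blm, Cd74, Ces3b, Ctss, Efna3, Fads2, Fads3, Gss, H2-Aa, Hpx, Shc2, Spp1, Tom1l2, Ttc14 and Usp24. DESeq2 kept 39 and leaving out m12_WD+VC 2 kept 20. Depth limits what low genes can show: the smallest library compared with control at 12 months held 141457 counts. In the comparison with VC alone, m12_CD+VC 2 held 126160.

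The replicate numbers did not pair the samples: deviations of same-numbered control and combined libraries correlated at -0.00087, 0.14 and -0.088 (Pearson, across genes). With the replicate block the count against control was 260, all 56 named calls were kept, and the difference between the times had 13 calls.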
